A study of Caenorhabditis elegans with 6 samples.

Results

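The 10 genes described here encode cell adhesion molecules of neurons: the neurexin nrx-1, the neuroligin nlg-1, the Caspr homologue nlr-1, the calsyntenin casy-1, the Fat-like cadherin cdh-4, the L1CAM homologues sax-7 and lad-2, the nephrin-like pair syg-1 and syg-2, and the LAR-type receptor phosphatase ptp-3. They were chosen by family, and every array feature (a probe set, the group of short probes that reports one transcript) whose only named gene is one of them was kept, which gave 21 of the 22548 probe sets of the array. For each of the 17118 genes measured, the brightest probe set stood for the gene, and the dimmer ones are given beside it. A further probe set that lists ptp-3 under 2 gene entries, and one shared by nlr-1 and F20B10.2, were not counted.

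RNA of wild-type (N2) Caenorhabditis elegans was hybridised to 3 arrays and RNA of unc-37(e262) mutants to another 3, in each case from L2 larvae kept at 25 °C. In both genotypes the unc-4 promoter drove FLAG-marked PAB-1, the poly(A)-tail binding protein through which mRNA was then recovered. The promoter is active in the DA and VA (A-class) motor neurons, which drive backward movement, so the RNA is enriched for these cells but holds transcripts of others. unc-37 encodes a Groucho corepressor, and the question is how its mutation alters the mRNA of the tagged neurons. According to the labels each array is a biological replicate. The labels' numbering runs through the wild type before unc-37, so any effect of running order that follows it cannot be told apart from genotype.

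Adhesion molecules of these families span the membrane and bind a partner on the facing cell or in the matrix. Neurexin sits mainly on the presynaptic side in vertebrates and binds neuroligin across the cleft. Immunoglobulin and cadherin proteins hold axons together, keep neurons in place and help to select where synapses form. UNC-37 and the homeodomain protein UNC-4 are known for setting which interneurons contact VA motor neurons, so proteins that join one neuron to another are a natural group to look up in these data.

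The arrays had median intensities of 50.1 to 52.4 before logs were taken, and log2 values correlated at r = 0.986 to 0.991 among wild-type arrays and 0.984 to 0.990 among unc-37 arrays. unc-37 itself, the mutated gene, read 8.49 ± 0.04 (SD, n = 3) in wild type and 8.99 ± 0.10 in the mutant, a rise that does not check the e262 allele. unc-4, the source of the promoter for PAB-1, rose from 7.43 ± 0.69 to 10.17 ± 0.28 on the log2 scale. Of 9 markers of A-class and cholinergic motor neurons, all 9 were measured, 7 rose and 1 fell. Their summed intensity was 1366 to 1905 in wild type and 3642 to 4168 in unc-37. unc-4 is among the 9 and changed most, by 2.74, so the rise of the sums leans in part on it. The median change of the 9 was 1.01. Of 18 pan-neuronal genes 13 rose and none fell, with sums of 7645 to 9101 and 13337 to 14164. Among markers named for other neuron classes, 4 of 5 B-class markers rose (median change 0.95), but 1 of 5 GABA markers (median 0.12) and 2 of 7 touch neuron markers (median -0.17). Whether the B-class transcripts came from B-class neurons or from the tagged A-class neurons was not tested. Of 18 measured hypodermal markers 1 rose and 2 fell, with overlapping sums of 20529 to 31943 and 12691 to 21090. Of 10 pharyngeal markers none rose and 2 fell, at 5349 to 6796 against 3045 to 4043. The falls were phat-2 (-1.52) and abu-14 (-2.38), and the median change of the 10 was -0.25. abu-14 was the brightest of them in wild type, with a mean of 11.14 against 8.76 in unc-37, so the sums lean on it. Sums of 12 body wall muscle genes overlapped, at 16772 to 19393 and 16663 to 18410, as did those of 10 intestinal genes, of which 1 rose. Among 5 glial and 6 germ line genes limma called none, with 1 higher and 2 lower at an unadjusted p below 0.05 for glia and 0 for the germ line. Of all 22548 probe sets 4697 had an unadjusted p below 0.05 either way. RMA lists no value at 0, and no detection calls were used. The higher A-class, B-class and pan-neuronal sums and the lower pharyngeal sums run alongside the changes below, and their part in them was not tested. The tag is driven by the unc-4 promoter, and unc-4 itself rose by 2.74. Whether the level of the tag or the recovery of tagged RNA differed between genotypes was not tested. In RNA recovered from many cells at once, fewer cells of a type and less RNA per cell cannot be told apart.

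Of the 10 adhesion genes, 5 rose in unc-37 and 1 fell. The rises were nlr-1, nrx-1, casy-1, sax-7 and syg-1, the fall was lad-2, and syg-2, ptp-3, cdh-4 and nlg-1 were not called. A call is an adjusted p below 0.05 in limma's moderated test, Benjamini-Hochberg adjusted over all 22548 probe sets, and changes are given as unc-37 less wild type on the log2 scale. Over all genes 6.75% were called, 3.94% higher and 2.81% lower, so the 5 rises among 10 genes stand against a background of 3.94%. Of the 18 pan-neuronal genes 13 were called higher, with a median change of 0.71. Bright genes were called more often: of genes with a mean log2 level of at least 6, 7.59% were called higher and 5.06% lower. By probe set, 8 of 21 were called higher and 1 lower, against 3.85% and 2.57% of all probe sets (6.42% either way). Counted by overlap, 13 of the 21 probe sets were higher in every unc-37 array than in any wild-type array and 1 was lower, as were 12.8% and 13.1% of all probe sets. With 1 array left out, 2 member genes were called higher without wild-type replicate 2, unc-37 replicate 1 or unc-37 replicate 2, and 4 without any of the other 3, and the call of lad-2 held in 1 of the 6 cases. The median log2 change of the 10 genes was 0.51, and that of all genes was -0.01. In 8 of the 10 genes every unc-37 array lay above every wild-type array, as did 12.6% of all genes, and in lad-2 every unc-37 array lay below, as in 13.7%. The members and this comparison were chosen with earlier results of these data known, so the count describes the group and is not independent evidence of a direction.

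**Figure D1:**
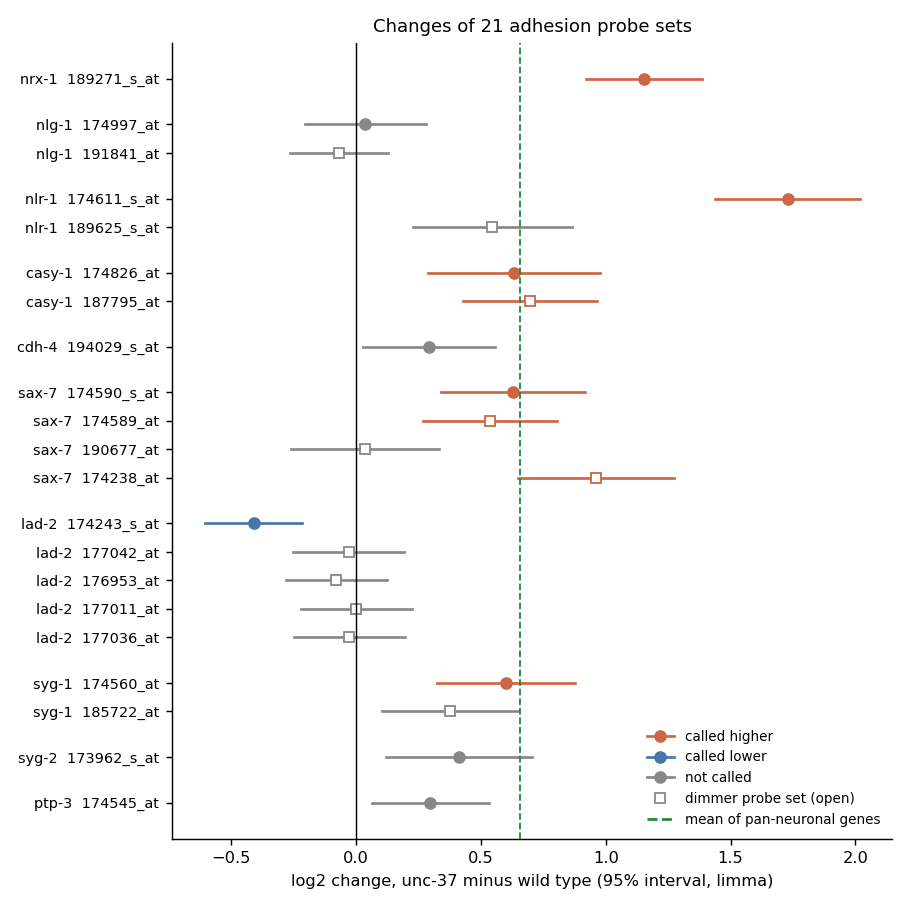
Log2 change (unc-37 minus wild type) with its 95% interval for each of the 21 probe sets, grouped by gene. Filled circles are the brightest probe set of a gene and open squares the dimmer ones. Orange marks a call higher, blue a call lower and grey no call, and the dashed line is the mean change of 18 pan-neuronal genes, 0.66. The intervals of the brightest probe sets of nlr-1 and nrx-1 lie wholly to the right of that line, that of the dimmest sax-7 probe set reaches just below it, and both probe sets of nlg-1 span 0.

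Neurexin rose, and neuroligin was not called. The single probe set of nrx-1, which encodes the neurexin, read 7.35, 7.49 and 7.51 on the log2 scale in the 3 wild-type arrays and 8.52, 8.76 and 8.53 in the 3 unc-37 arrays. The groups were more than 1 log2 unit apart at their closest. The change was 1.15 ± 0.10 (SE, n = 3 per group, 95% interval 0.92 to 1.38), or 2.22-fold, at an adjusted p of 0.00135 in limma. The brighter probe set of nlg-1, whose product NLG-1 is the worm's neuroligin, read 8.79, 8.61 and 8.69 in wild type and 8.64, 8.65 and 8.91 in unc-37. The ranges overlapped, and the change of 0.04 ± 0.11 had a 95% interval of -0.21 to 0.28 (adjusted p = 0.889, limma). The dimmer nlg-1 probe set changed by -0.07 ± 0.09 and overlapped as well. Within each array, the log2 value of nrx-1 minus that of nlg-1 differed by 1.12 between genotypes, from -1.44, -1.11 and -1.19 to -0.12, 0.10 and -0.38. The values of the genotypes did not overlap, and an exact two-sided permutation test gave p = 0.1, the smallest that 3 arrays against 3 allow (0.133 adjusted over the 4 pairs of members tested).

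**Figure D2:**
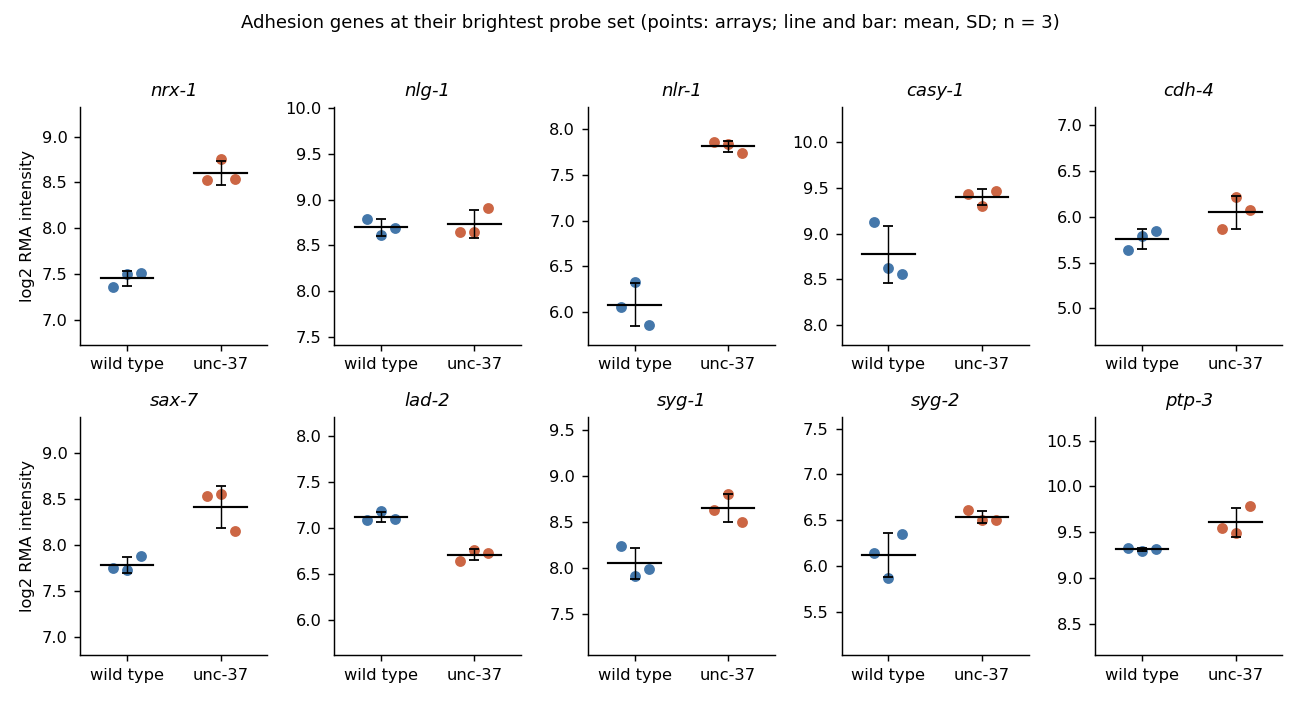
Log2 RMA intensity of the 10 adhesion genes at their brightest probe set. Points are arrays, horizontal lines are means and bars are SD (n = 3 per genotype), and each panel spans the same number of log2 units. The genotypes are well apart for nrx-1 and nlr-1, close but not overlapping for 7 others, and overlapping for nlg-1.

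The largest change of the group was that of nlr-1, which encodes a protein of the Caspr family, relatives of neurexin that in vertebrates organise contacts along axons. Its brighter probe set read 6.06, 6.33 and 5.86 in wild type and 7.85, 7.84 and 7.74 in unc-37. All unc-37 arrays were high and close together, with an SD of 0.06 against 0.24 in wild type. The change was 1.73 ± 0.13 (95% interval 1.44 to 2.02), or 3.31-fold (limma adjusted p = 7.9e-04). The other probe set of nlr-1 read 5.50, 5.57 and 5.09 against 6.07, 5.87 and 5.85. It was higher in every unc-37 array, yet its change of 0.55 ± 0.14 was not called (adjusted p = 0.0580). The difference between the probe sets was tested in its own limma fit, over all 3648 pairs of probe sets that name one gene, of which 3.56% were called. The brighter probe set of nlr-1 changed by 1.18 ± 0.14 more than the dimmer (adjusted p = 0.00147). The nlr-1 probe set shared with F20B10.2 lay at 5.08 to 5.43 in unc-37, across the wild-type range of 5.15 to 5.21. Within arrays, nrx-1 minus nlr-1 read 1.29, 1.17 and 1.65 in wild type and 0.67, 0.92 and 0.80 in unc-37, a difference of -0.58 without overlap (exact permutation p = 0.1, adjusted 0.133).

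casy-1 encodes calsyntenin, a cadherin-repeat protein of synapses and axons that binds kinesin light chains. Its probe sets changed alike, by 0.63 ± 0.15 and 0.70 ± 0.12, and their difference was not called (-0.06 ± 0.17, 95% interval -0.45 to 0.32). The brighter read 9.13, 8.63 and 8.56 in wild type and 9.44, 9.31 and 9.47 in unc-37, with the first wild-type array well above the other 2. The dimmer read 7.53, 7.33 and 7.57 against 8.03, 8.13 and 8.36. Both were called in limma (adjusted p = 0.0461 and 0.0118), a rise of 1.55-fold and 1.62-fold. In the same first wild-type array the mean log2 level of the pan-neuronal genes was 7.98, against 7.78 and 7.84 in the other 2, and that of the A-class markers 7.14 against 6.73 and 6.72. Whether that array holds more neuronal RNA was not tested. cdh-4, a Fat-like cadherin that keeps axons bundled, has 1 probe set, at 5.64, 5.79 and 5.85 in wild type and 5.86, 6.22 and 6.07 in unc-37. The highest wild-type and the lowest unc-37 array nearly met, and the change of 0.29 ± 0.12 was not called (adjusted p = 0.198).

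At their brightest probe sets, the L1CAM homologue sax-7 rose and lad-2 fell. sax-7, which keeps neurons and axons in place once development is over, rose on 3 of its 4 probe sets. The brightest read 7.75, 7.72 and 7.89 in wild type and 8.53, 8.56 and 8.15 in unc-37, with the third unc-37 array nearest to wild type. Its change was 0.63 ± 0.13, or 1.54-fold (limma adjusted p = 0.0242). The next rose by 0.54 ± 0.12 (0.0338), from 6.91, 6.78 and 7.10 to 7.61, 7.48 and 7.32. The dimmest rose by 0.96 ± 0.14 (0.00616), from 5.73, 5.29 and 5.44 to 6.28, 6.60 and 6.46. The remaining probe set read 5.90, 6.26 and 6.39 against 6.26, 6.20 and 6.20 and overlapped, at 0.04 ± 0.13 (95% interval -0.26 to 0.33). It lay 0.59 ± 0.17 below the brightest in its change, which was not called over all pairs (adjusted p = 0.0915), and pairs that leave out the brightest probe set were not tested. This difference was called without unc-37 replicate 3 (0.71, adjusted p = 0.0367) and with array weights (0.63, 0.0141).

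lad-2 encodes a non-canonical L1CAM that serves as a coreceptor in semaphorin signalling. Its brightest probe set fell, from 7.08, 7.18 and 7.09 to 6.64, 6.75 and 6.73, a change of -0.41 ± 0.09, to 0.752 times the wild-type level (limma adjusted p = 0.0276). All 3 unc-37 arrays were low on it. On the other 4 probe sets of lad-2 the genotypes overlapped, with changes of -0.08 to 0.00 and adjusted p of 0.672 to 0.998. The one nearest to it in level read 6.83, 6.71 and 6.57 in wild type and 6.63, 6.70 and 6.69 in unc-37. The change of the brightest minus that of each other probe set was -0.41 to -0.33, and none of these 4 differences was called over all pairs (adjusted p = 0.158 to 0.240, unadjusted 0.0130 to 0.0312), though 1 was with array weights (-0.45, adjusted p = 0.0356). The fall of lad-2 thus rests on 1 of 5 probe sets, and with the mean of all 5 the change was -0.11 (adjusted p = 0.485). Within arrays, sax-7 minus lad-2 at their brightest differed by 1.04 with no overlap, from 0.67, 0.54 and 0.79 to 1.89, 1.80 and 1.42 (exact permutation p = 0.1).

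**Figure D3:**
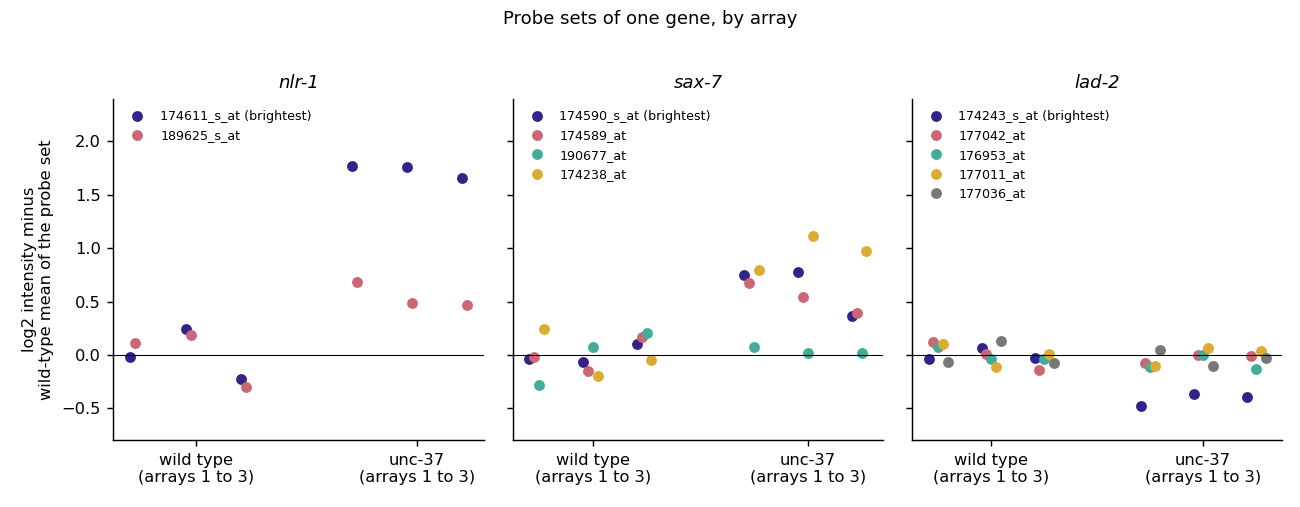
Log2 intensity of each probe set of nlr-1, sax-7 and lad-2 minus its own wild-type mean, by array. Points of one colour are one probe set, and the order of arrays within a genotype carries no meaning. Both nlr-1 probe sets are above the wild-type arrays in unc-37 by unequal amounts, 3 of 4 sax-7 probe sets lie above the wild-type range in every unc-37 array, and 1 of 5 lad-2 probe sets lies below it.

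SYG-1 and SYG-2, immunoglobulin proteins related to Neph1 and nephrin, bind each other and mark where the worm's egg-laying neuron forms synapses. The brighter probe set of syg-1 read 8.24, 7.91 and 7.99 in wild type and 8.64, 8.81 and 8.50 in unc-37. It rose by 0.60 ± 0.12, or 1.52-fold (limma adjusted p = 0.0244). The dimmer one read 5.98, 5.60 and 5.89 against 6.27, 6.23 and 6.09, with a change of 0.37 ± 0.12 that was not called (adjusted p = 0.115). syg-2 has 1 probe set, at 6.14, 5.87 and 6.35 in wild type and 6.61, 6.50 and 6.50 in unc-37. Its groups did not overlap and its change of 0.41 ± 0.13 was not called (adjusted p = 0.107). Within arrays syg-1 minus syg-2 differed by 0.19, with overlapping groups (exact permutation p = 0.6), so a difference between the partners was not shown.

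PTP-3, the LAR phosphatase, is a receptor on axons and presynaptic sites that works with the scaffold liprin. Its counted probe set was nearly constant in wild type, at 9.32, 9.30 and 9.31, and read 9.55, 9.49 and 9.79 in unc-37. The groups did not overlap. The change was 0.30 ± 0.10 (95% interval 0.06 to 0.53) and was not called (limma adjusted p = 0.143). The uncounted probe set that lists ptp-3 under 2 gene entries lay at 5.55 ± 0.24 (SD) in wild type and higher in every unc-37 array, a called change of 0.69 ± 0.15 (adjusted p = 0.0361).

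Because most pan-neuronal genes rose in unc-37, each member was also set against the mean of the 18 pan-neuronal genes within each array. That mean was 0.66 log2 units higher in unc-37, and taking it off moves the median change of all probe sets from -0.01 to -0.67. At its brighter probe set nlr-1 remained higher by 1.07 ± 0.15 (limma adjusted p = 1.5e-04). Its dimmer probe set lay at -0.11 (95% interval -0.43 to 0.21) and was not called (adjusted p = 0.481). nrx-1 remained higher by 0.50 ± 0.14 (0.00419), while 0.917% of all genes were called higher on this scale. The test is against the mean of the list and leaves out the spread among its 18 genes. Before the mean was taken off, their changes ran from -0.175 to 1.201. The change of nrx-1, 1.15, lay inside that range, as did 0.55 at the dimmer nlr-1 probe set. That of the brighter nlr-1 probe set, 1.73, lay above it. With the mean taken off, casy-1, sax-7 and syg-1 lay at -0.02, -0.03 and -0.05, with 95% intervals of -0.32 to 0.28, -0.33 to 0.27 and -0.32 to 0.22. At these brightest probe sets no difference from the pan-neuronal mean was called, and of the dimmer ones 1 of sax-7 was called higher (0.31, adjusted p = 0.0468) and another lower (-0.62, 0.00291), and the dimmer syg-1 probe set was called lower (-0.28, 0.0436). syg-2 lay at -0.24 (adjusted p = 0.107). ptp-3 (-0.36, 0.0214), cdh-4 (-0.36, 0.0330), nlg-1 (-0.62, 7.3e-04) and lad-2 (-1.07, 8.7e-05) were called lower than the pan-neuronal mean, as were 89.6% of all genes. By probe set 3 members were called higher and 11 lower, against 0.878% and 89.4% of all probe sets.

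**Figure D4:**
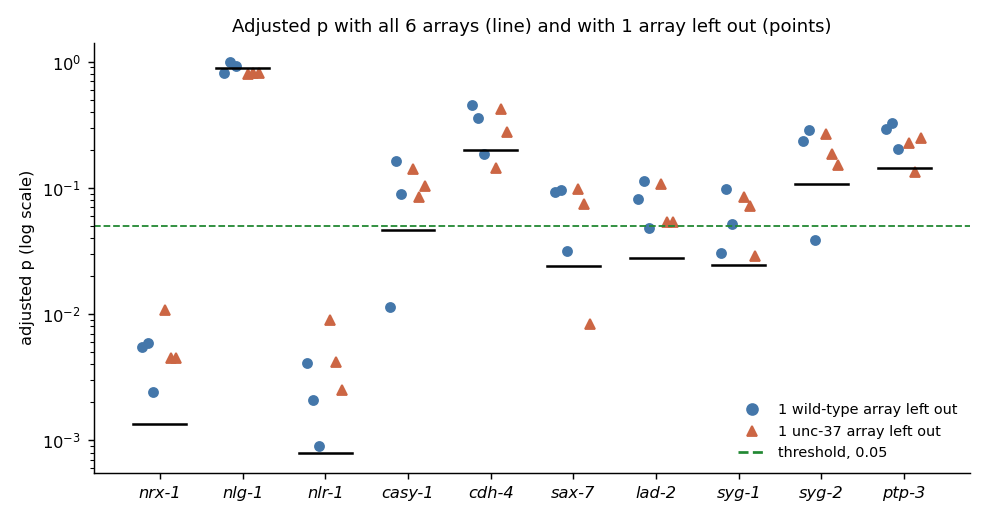
Adjusted p of the 10 adhesion genes on a log axis, with all 6 arrays (black line) and with 1 wild-type (blue circle) or 1 unc-37 array (orange triangle) left out. The dashed line is the call threshold of 0.05. nrx-1 and nlr-1 stay below it in all 6 cases, at most at 0.0107, and casy-1, sax-7, lad-2 and syg-1 each cross it when 1 of several arrays is left out.

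With 1 array left out, nrx-1 and nlr-1 were called in 6 of 6 cases, with changes of 1.08 to 1.19 and 1.62 to 1.85. The call of casy-1 held only without wild-type replicate 1 (adjusted p = 0.0114), and at its dimmer probe set it ended only without wild-type replicate 2 (0.0519). The call of sax-7 at its brightest probe set held when the third array of either genotype was left out and ended in the other 4 cases (0.0743 to 0.0978), while its dimmest probe set was called in all 6 (0.00877 to 0.0257). That of syg-1 held when wild-type replicate 1 or unc-37 replicate 3 was dropped (ended elsewhere at 0.0513 to 0.0986), and that of lad-2 only without wild-type replicate 3 (ended at 0.0540 to 0.113). syg-2 became called without wild-type replicate 3 (0.0387). Other settings ended calls too: casy-1 was at an adjusted p of 0.0597 with an intensity trend in limma's prior and 0.107 after a second quantile normalization, and lad-2 at 0.0650 with the trend. The direction of these 7 genes, and of cdh-4 and ptp-3, was the same in all 6 cases, and that of nlg-1 was not.

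Few genes of the wider adhesion set were called. Of 77 other genes of adhesion and their partners, 74 were measured, 4 rose and none fell. That is 5.41% called higher, near the background of 3.94%. At an unadjusted p below 0.05 in limma there were 21 upward and 6 downward, while 4697 of all 22548 probe sets were below it either way. The change was above 0 in 57 of the 74 genes, against 46.6% of all genes. The median change of the 74 was 0.17. The count of those called higher was 2 without wild-type replicate 2 or unc-37 replicate 1, and 8 without unc-37 replicate 3. Of 14 extracellular partners and matrix genes, madd-4 and lon-2 rose. madd-4, which encodes a secreted organiser that binds neuroligin and neurexin at neuromuscular synapses, read 10.77, 10.08 and 10.01 in wild type and 11.49, 11.67 and 11.50 in unc-37, a rise of 1.27 ± 0.19 (2.41-fold, limma adjusted p = 0.00763). It was called with each array left out. A dimmer probe set of madd-4 changed by 0.62 ± 0.21, was not called and overlapped. lon-2, a glypican, rose by 0.52 ± 0.11 (0.0281), though its dimmer probe set lay at -0.16, and its call was lost when wild-type replicate 1, wild-type replicate 2, unc-37 replicate 1 or unc-37 replicate 3 was left out (0.0692 to 0.111).

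Of 13 measured intracellular partners, syd-1 and lin-2 rose. syd-1, a RhoGAP-like protein that acts early in building presynaptic sites, rose by 0.83 ± 0.12 (limma adjusted p = 0.00662), from 8.76, 8.83 and 8.70 to 9.44, 9.50 and 9.84, and a second probe set rose by 0.65 ± 0.10 (0.00807). lin-2, the CASK scaffold that in mammals binds the neurexin tail, rose by 0.73 ± 0.14 (0.0230), and its call was lost when wild-type replicate 2 or any 1 unc-37 array was left out (0.0516 to 0.0912). A dimmer probe set of lin-2 changed by 0.57 ± 0.19, overlapped between genotypes and was not called (limma adjusted p = 0.122). Relative to the pan-neuronal mean, madd-4 was still called higher (0.61, limma adjusted p = 0.00311), while the calls of syd-1 (0.18, 0.264), lin-2 (0.075, 0.593) and lon-2 (-0.13, 0.333) ended. None of 27 immunoglobulin superfamily genes, 13 cadherins and catenins, or 7 integrins and matrix receptors was called by limma. At an unadjusted p below 0.05 these lists held 5 higher and 3 lower, 5 and 1, and 2 and 0. The highest change among them, that of the Flamingo cadherin fmi-1, named here after its value was seen, was 1.11 ± 0.32 (adjusted p = 0.0809), with unc-37 arrays as far apart as 8.45 and 9.75. It was called without unc-37 replicate 3 (0.0377) and with array weights (0.0460).

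**Figure D5:**
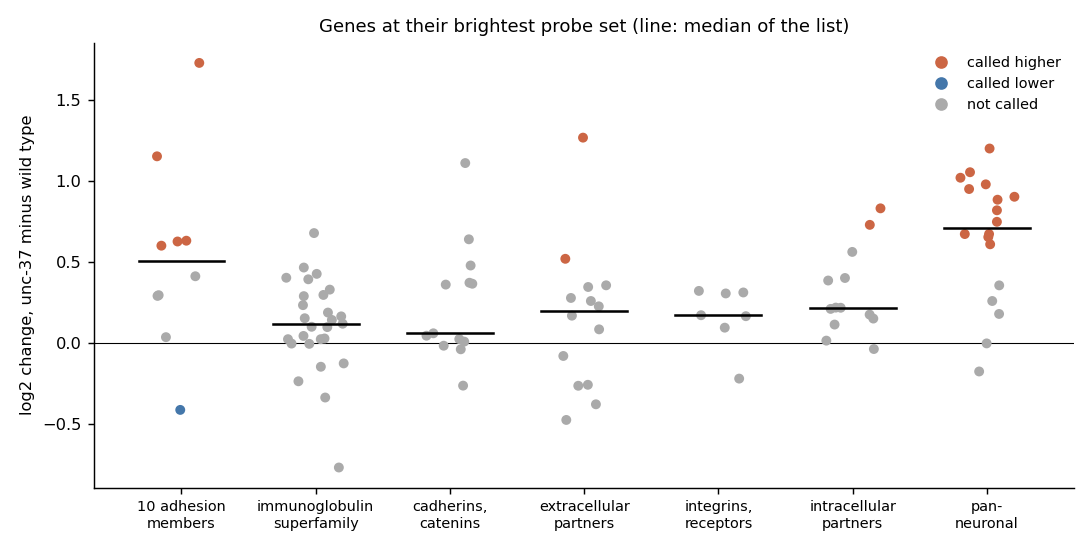
Log2 change (unc-37 minus wild type) of each gene at its brightest probe set, for the 10 adhesion genes, the 5 lists of other adhesion genes and the pan-neuronal list. Points are genes, orange called higher, blue called lower and grey not called, and lines are medians. The medians of the 5 other lists lie between 0.06 and 0.22, against 0.51 for the 10 genes and 0.71 for the pan-neuronal list.

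Among 10188 genes with a symbol, the arrays' pattern nearest to that of nrx-1, by Euclidean distance over 6 arrays between log2 values centred on each gene's mean, was that of unc-80, egl-36 and arrd-22 (distances of 0.22 to 0.27 log2 units). For nlr-1 the nearest were sphr-1, flp-9 and mec-12, at 0.49 to 0.63. The nearest to casy-1 were jnk-1, klc-2 and ric-8, to sax-7 kvs-1, anat-1 and skr-1, to syg-1 acr-14, mkk-4 and xbx-6, and to lad-2 clec-178, glna-2 and ntl-2.2, all within 0.19. The distances describe these 6 arrays only, which share 2 genotypes.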

How the data were processed

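The authors deposited 1 intensity per probe set and array, and the submitters' processing notes name RMA, without a version, as the method. That these intensities are linear was read from the values. They were log2 transformed, with no filter and no further normalization. Probe sets were named from the platform's gene table, in which 20766 of 22548 name 1 gene. limma 3.58.1 in R 4.3.3 (lmFit, eBayes, two-sided) was fitted on all probe sets, and separately on within-array differences between probe sets of one gene; both fits were tested on simulated data. 95% intervals are those of the moderated fit. Pairs of members were compared with exact permutation tests (scipy 1.17.1). Figures used matplotlib 3.10.9. The number of arrays limits the precision.

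The members and lists were chosen with earlier results of these data known. Named are all members, unc-4, the 2 called pharyngeal markers, the called genes of the other adhesion lists (up to 3 per direction and list) and the 3 genes nearest to each called member. Per the labels' protocols, 2 rounds of in vitro transcription preceded hybridisation, which favours 3' ends, and RMA tends to compress the changes of dim probe sets. Alternatives were an intensity trend, array weights, filters on dim probe sets, other scalings, the replicate number as a block, other thresholds, averaging probe sets by gene and leaving out each array. A promoter motif search that had been planned was not run, and no sequence or coordinate was used here.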

Additional observations from a re-analysis of the deposited data

How the results depend on the processing

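Over the alternatives, member genes gave 149 values, of which 109 kept both direction and side of the threshold. Another 26 kept direction but were no longer called, 2 kept direction and became called, and 12 changed sign. Those that changed sign were not sorted by call. Among them, with scaling to pan-neuronal genes, nlg-1, cdh-4 and ptp-3 became called lower (limma adjusted p = 7.3e-04, 0.0330 and 0.0214). On that scale casy-1, sax-7 and syg-1 were no longer called. nrx-1 and nlr-1 were called under all 15 (adjusted p at most 0.0107 and 0.00895). The cause of these moves was not tested. Scaling to pan-neuronal genes lowers every change by 0.66 by construction. It gave 3 member probe sets higher and 11 lower, 2 and 4 member genes, 1 and 51 other adhesion genes, 198 and 20156 probe sets and 157 and 15331 genes, and changes of -0.62 (nlg-1), -0.023 (casy-1), -0.36 (cdh-4), -0.028 (sax-7), -0.054 (syg-1), -0.24 (syg-2), -0.36 (ptp-3) and -0.13 (lon-2). nlg-1 also changed sign with array weights (-0.012), a second quantile normalization (-0.062), the mean of its probe sets (-0.016) and, without single arrays, over a range of -0.051 to 0.085.

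The call of lad-2, the 1 lower member probe set and gene, was lost (count 0) with a prior trend, a fold of at least 1.5 and, by gene, the mean of probe sets. Array weights gave 1367 probe sets and 1043 genes higher, 723 genes lower, 11 other adhesion genes higher and 1 lower, and 3 called differences between probe sets of a member. A second quantile normalization gave 3 other adhesion genes lower, median centring 7 higher, and the mean of probe sets 1 lower. At an adjusted p below 0.1 there were 1375 probe sets higher and 963 lower, 1069 and 794 genes, and 13 and 3 other adhesion genes. Without single arrays, counts ranged from 3 to 7 (higher) and 0 to 1 (lower) for member probe sets, 2 to 4 and 0 to 1 for member genes, 2 to 8 and 0 to 1 for other adhesion genes, 336 to 1049 and 276 to 628 for probe sets, 277 to 811 and 219 to 528 for genes, and 1 to 2 for differences between probe sets.

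Same-numbered arrays did not deviate together (r = -0.187, -0.141 and -0.103), and arrays of unlike number gave r = 0.0473 to 0.0976. Deviations from the means of 3 arrays cannot settle whether same-numbered arrays were processed together. With the replicate block 4 member probe sets were higher and 0 lower, and 2 member genes higher and 0 lower, with casy-1, sax-7, lad-2 and syg-1 at adjusted p = 0.0591, 0.0657, 0.0801 and 0.0567, and fmi-1 became called (0.0357). Of the 21 member probe sets, 5 lie below the median level of all probe sets, and 1 of the 9 called has a mean log2 level under 6.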
